A study of Homo sapiens with 6 samples.

Results

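Rab GTPases are small switch proteins that give the membranes of the endocytic and secretory routes their identity. Bound to GTP, each recruits its own effectors (motors, tethers and coats) to one compartment, after which a GTPase-activating protein (GAP) turns it off and a guanine nucleotide exchange factor (GEF) can turn it on again. A lipid prenyl tail, added by Rab geranylgeranyl transferase with the help of a Rab escort protein, anchors the Rab in the membrane, and GDP dissociation inhibitors (GDIs) carry the inactive form through the cytosol. In mammary and other epithelia several Rabs, RAB25 and RAB17 among them, are known from transport to and from the apical surface.

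The members were the protein-coding genes whose symbol is RAB followed by digits and at most one letter. There were 60 of them among 52401 genes in the deposited table of group means. They were measured by stranded mRNA sequencing of MCF10A, an immortalised, non-tumorigenic human mammary epithelial cell line, in 2 groups of 3 libraries. MCF10AF1F2 cells stably co-express human Flotillin1-HA and human Flotillin2-mCherry after infection with a retroviral vector for each and selection with puromycin and hygromycin. MCF10AmCherry cells stably express mCherry alone after infection with 1 vector and selection with puromycin. Both lines were grown in the same medium with horse serum, insulin, EGF, hydrocortisone and cholera toxin. Each group is 1 stable line, so the level of flotillin, the number of vectors and hygromycin selection cannot be told apart. The labels do not state whether the samples of a line were grown separately, so the p-values refer to the spread among these samples, possibly a technical one.

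The deposited values are group means, but their decimals hold the whole reads of the 3 libraries behind them, which were recovered for 60 of 60 Rab genes. Recovered libraries carry no replicate number and are called 1 to 3 within a group, by falling size factor, so library 1 of one group has no tie to library 1 of the other. They held between 18647386 and 19776803 reads in the genes that could be solved. FLOT1 stood at 17243, 14137 and 18932 normalized counts (reads divided by the library's size factor) in MCF10AF1F2 libraries, against 1898, 1359 and 1166 in MCF10AmCherry libraries. FLOT2 had an authors' mean of 41052 in MCF10AF1F2 cells and 3727 ± 913 normalized counts in MCF10AmCherry libraries (SD, n = 3). Of the markers that define a basal mammary epithelial cell, KRT5 was abundant in both lines, with authors' means of 67351 in MCF10AF1F2 and 48381 in MCF10AmCherry cells. TP63 averaged 25.6 ± 13.6 normalized counts in MCF10AF1F2 and 1765 ± 424 in MCF10AmCherry libraries, and KRT17 averaged 693 ± 298 in MCF10AF1F2 and 13306 ± 5963 in MCF10AmCherry libraries (SD, n = 3 each). KRT14 and EGFR fell as well, with log2 fold changes of -1.87 and -0.68 by the authors' deposited table (adjusted p = 0.00704 and 0.0462). KRT14 overlapped between the lines, with 120, 430 and 226 normalized counts in MCF10AF1F2 and 822, 287 and 2638 in MCF10AmCherry libraries. Neither passed in the limma fit described below (adjusted p = 0.135 and 0.0672). In the authors' deposited Tuxedo table KRT14 passed (q-value of 0.000804) and EGFR did not (0.0572). ITGB4 was not called, at a log2 fold change of -0.04 by the authors' deposited table of means. Of the general epithelial markers, CDH1, the E-cadherin gene, averaged 78.8 ± 36.7 in MCF10AF1F2 and 17575 ± 2685 in MCF10AmCherry libraries, and EPCAM averaged 81.0 ± 12.9 in MCF10AF1F2 and 4607 ± 865 in MCF10AmCherry libraries (SD, n = 3 each). KRT8 was not called, at 3494 ± 237 in MCF10AF1F2 and 2043 ± 1589 in MCF10AmCherry libraries (SD, n = 3 each). Defining markers of other cell types were at or near 0 in both lines for immune (PTPRC, CD3E) and endothelial (CDH5) cells, and the fibroblast markers THY1 and COL3A1 had at most 1.03 normalized counts in any library. The fibroblast markers COL1A1, at 87.7 ± 17.6 in MCF10AF1F2 and 268 ± 105 in MCF10AmCherry libraries, and PDGFRB, at 74.4 ± 30.2 in MCF10AF1F2 and 24.4 ± 3.51 in MCF10AmCherry libraries, were detected (SD, n = 3 each); their part in the results was not tested.

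The promoters of RAB25 and RAB17, the Rab genes with the deepest falls, and of RAB31 and RAB21, both among those that rose most, are shown as examples of large falls and rises. They were chosen after their values and motifs were seen, and the CAGGTG form marked in the first pair also stood in promoters of 5 Rab genes that rose, named after the sequences. Each line gives the 250 bases before the start of transcription in RefSeq on GRCh38.p14, 5′ to 3′ on the strand of the gene. Capitals mark CAGGTG or its reverse complement CACCTG, an E-box form bound by repressors of the ZEB and SNAI families, and CACGTG, the palindromic E-box bound by basic helix-loop-helix leucine zipper factors. RAB25 spans chr1:156060910-156061159 on the plus strand and RAB17 spans chr2:237590735-237590984 on the minus strand. RAB31 spans chr18:9708051-9708300 and RAB21 spans chr12:71754613-71754862, both on the plus strand.
RAB25: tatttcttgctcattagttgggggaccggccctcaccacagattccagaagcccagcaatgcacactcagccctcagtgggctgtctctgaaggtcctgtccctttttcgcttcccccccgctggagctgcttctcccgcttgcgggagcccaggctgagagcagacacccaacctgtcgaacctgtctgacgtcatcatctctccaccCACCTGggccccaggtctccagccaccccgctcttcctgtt
RAB17: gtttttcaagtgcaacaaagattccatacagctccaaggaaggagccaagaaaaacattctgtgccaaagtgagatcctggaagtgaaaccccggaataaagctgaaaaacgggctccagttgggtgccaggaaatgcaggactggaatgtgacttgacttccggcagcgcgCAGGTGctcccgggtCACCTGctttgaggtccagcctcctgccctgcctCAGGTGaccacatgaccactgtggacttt
RAB31: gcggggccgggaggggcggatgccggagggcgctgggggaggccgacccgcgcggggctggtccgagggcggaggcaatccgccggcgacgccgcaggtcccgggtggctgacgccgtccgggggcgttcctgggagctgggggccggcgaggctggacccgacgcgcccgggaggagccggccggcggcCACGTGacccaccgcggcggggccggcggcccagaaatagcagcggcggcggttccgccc
RAB21: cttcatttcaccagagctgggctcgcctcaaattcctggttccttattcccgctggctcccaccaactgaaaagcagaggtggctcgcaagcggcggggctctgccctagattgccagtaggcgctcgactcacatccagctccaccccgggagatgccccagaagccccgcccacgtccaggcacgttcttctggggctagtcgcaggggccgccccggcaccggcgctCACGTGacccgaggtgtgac

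Windows of 300 bases (250 before and 50 after a start) matched 47 of the 60 Rab genes by symbol, with 67 windows in all. CAGGTG or CACCTG stood in 12 of these 67 windows (17.9%) and in 20.6% of 35116 windows of all genes. By call, it stood in 5 of 29 windows of Rab genes that rose (RAB5B, RAB5C, RAB18, RAB22A and RAB27A) and in 2 of 6 windows of Rab genes that fell (RAB17 and RAB25). It also stood in 5 of 32 windows of those not called or not tested (RAB2B, RAB3B, RAB4A, RAB19 and RAB30). A gene can have several windows: these came from 19 Rab genes that rose, 3 that fell and 25 not called or not tested. RAB17 had 3 such sites and RAB25 had 2, the second of them after the start, whereas 3.49% of all windows had 2 or more. The only other Rab gene with 2 or more was RAB19, with 3 sites, which had no adjusted p here and 0.987 normalized counts in its highest library. CACGTG stood in 5 Rab windows (7.46%), those of RAB31, RAB21, RAB5A, RAB4A and RAB24, and in 7.26% of all windows, and RAB4A held both motifs. The window of RAB31 was 82.7% G and C with 52 CG pairs, and that of RAB21 63.3% with 21 CG pairs. RAB17 had 54.7% with 7 CG pairs and RAB25 60.7% with 9. These shares were not compared with those of other windows. A match is a run of letters, not a bound site, and no binding was measured here.

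More Rab genes rose than fell in MCF10AF1F2 cells. RAB31 rose 9.89-fold and the others that rose did so by 1.49-fold to 2.87-fold, while RAB25, RAB17, RAB38 and RAB43 fell. Of the 55 Rab genes with an adjusted p in the authors' deposited table, 22 rose (40.0%) and 4 fell (7.27%) at an adjusted p under 0.05. Over all genes tested there, 11.6% rose and 12.0% fell. Among genes with a mean of at least 100 normalized counts, 21 of 43 Rab genes rose and 3 fell, against 16.3% of all genes higher and 13.8% lower at that level. The median log2 fold change in the authors' deposited table was 0.58 for the 55 Rab genes and -0.04 for all genes tested, and 0.66 and 0.11 for those with a mean of at least 100. It was above 0 for 41 of the 55 Rab genes (74.5%), against 48.2% of all genes tested and 56.3% of those with a mean of at least 100. The authors' deposited Tuxedo table, a second run of the same comparison that tested 50 Rab genes, called 13 higher and 2 lower (RAB17 and RAB38) at a q-value under 0.05, against 6.93% and 10.0% of all its tested genes. Of these calls, 12 of the 13 and 2 of the 2 were shared with the first table. Of the genes that rose in the first table, RAB2A, RAB6B, RAB7A, RAB8B, RAB14, RAB18, RAB22A, RAB27A, RAB28 and RAB34 did not pass in the Tuxedo table. Their q-values ran from 0.0686 to 0.407. The 5 members outside the 55 had no adjusted p: RAB3C had no reads, and RAB6C, RAB19, RAB39 and RAB44 had at most 4.05 normalized counts in any library.

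**Figure D1:**
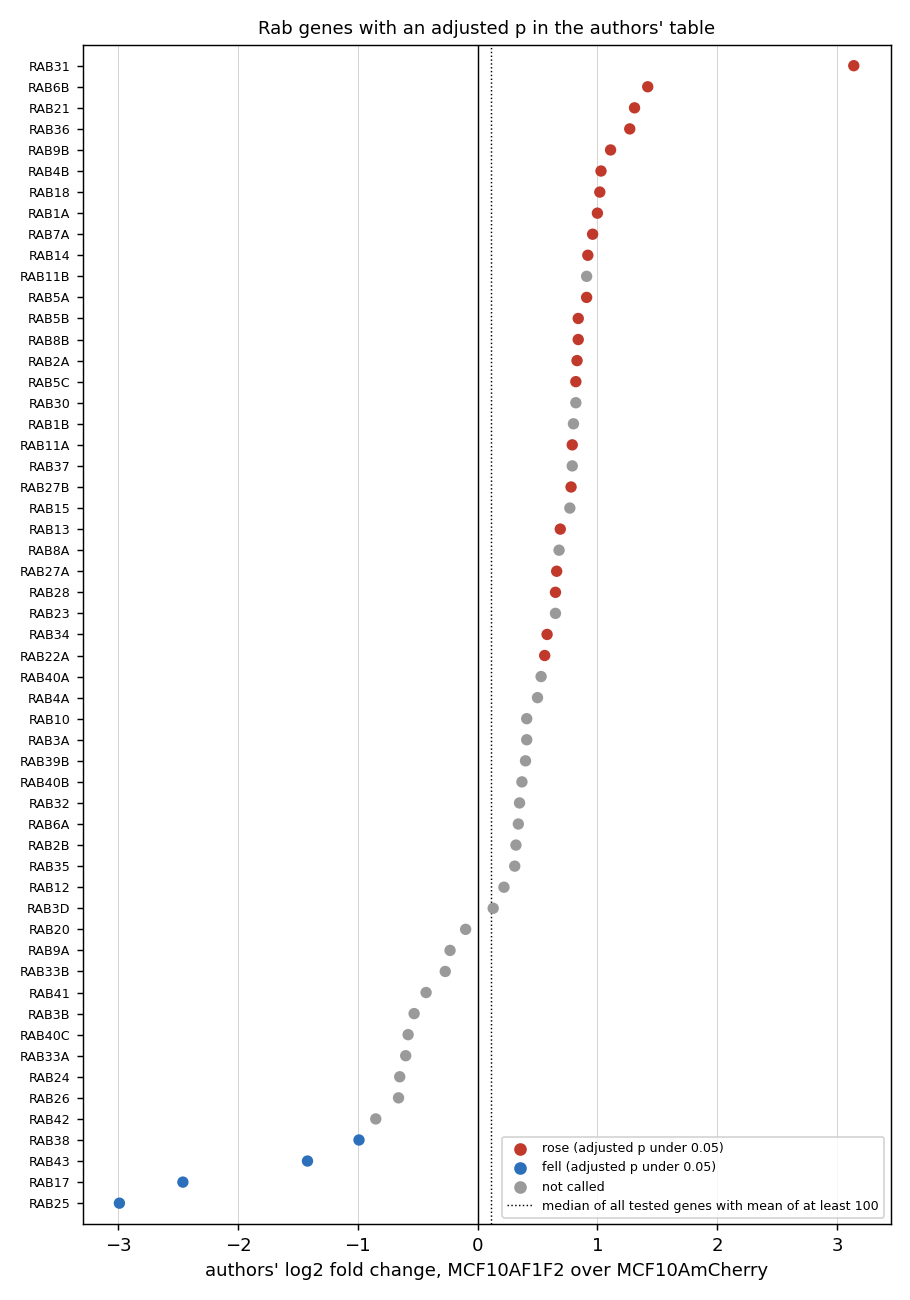
Authors' log2 fold change (MCF10AF1F2 over MCF10AmCherry, horizontal axis) of the 55 Rab genes with an adjusted p, 1 point a gene, coloured by call at an adjusted p under 0.05. RAB31 stands apart at 3.14 and RAB25 and RAB17 at -2.99 and -2.46, while the other genes that rose lie between 0.56 and 1.42.

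The recovered libraries were also compared without a model. Summed over the 60 Rab genes, normalized counts were 68790, 74471 and 71984 in MCF10AF1F2 libraries, against 44483, 38846 and 54808 in MCF10AmCherry libraries. The groups do not overlap, and MCF10AmCherry library 3 lies nearest to the MCF10AF1F2 libraries. The ratio of the group means was 1.56, or 1.72 when MCF10AmCherry library 3 was left out. That library is the highest of its group, so leaving it out can only raise the ratio. The other MCF10AmCherry libraries lie below their group mean, so leaving out either would lower it. Of the 51 Rab genes with a mean of at least 10, 29 were higher and 3 lower in every MCF10AF1F2 library than in any MCF10AmCherry library, against 24.2% and 21.1% of all 15907 such genes. The 29 include each of the 22 genes that rose; the other 7, which were not called, were RAB1B, RAB4A, RAB6A, RAB10, RAB11B, RAB23 and RAB30. In bulk RNA, a higher level per cell and a larger share of cells with that level cannot be told apart.

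MCF10AmCherry library 3 was the highest MCF10AmCherry library for 34 of the 51 genes and for 19 of the 22 that rose, while 42.6% of all genes with a mean of at least 10 were highest there. A second fit was limma applied to log2(normalized count + 1) in each recovered library. With all libraries it called 20 Rab genes higher and 3 lower among 51, against 12.2% and 11.1% of all genes in the fit, and all of the 20 and the 3 were also called in the authors' deposited table. Without MCF10AmCherry library 3 it called 30 higher and 4 lower. Leaving out another library lowered the count, to 7 higher and 1 lower without MCF10AmCherry library 1 and to 5 and 3 without MCF10AmCherry library 2. It called 3 and 2 without MCF10AF1F2 library 1, 3 and 2 without MCF10AF1F2 library 2, and 9 and 2 without MCF10AF1F2 library 3. The count of all genes called higher moved too, between 351 of 15957 without MCF10AF1F2 library 1 and 3509 of 15950 without MCF10AmCherry library 3. The median log2 fold change of the Rab genes stayed between 0.58 and 0.68 in these 6 fits. RAB31, RAB21 and RAB17 were called in 6 of 6 of them, RAB25, RAB36 and RAB1A in 5, and RAB5B in 4.

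**Figure D2:**
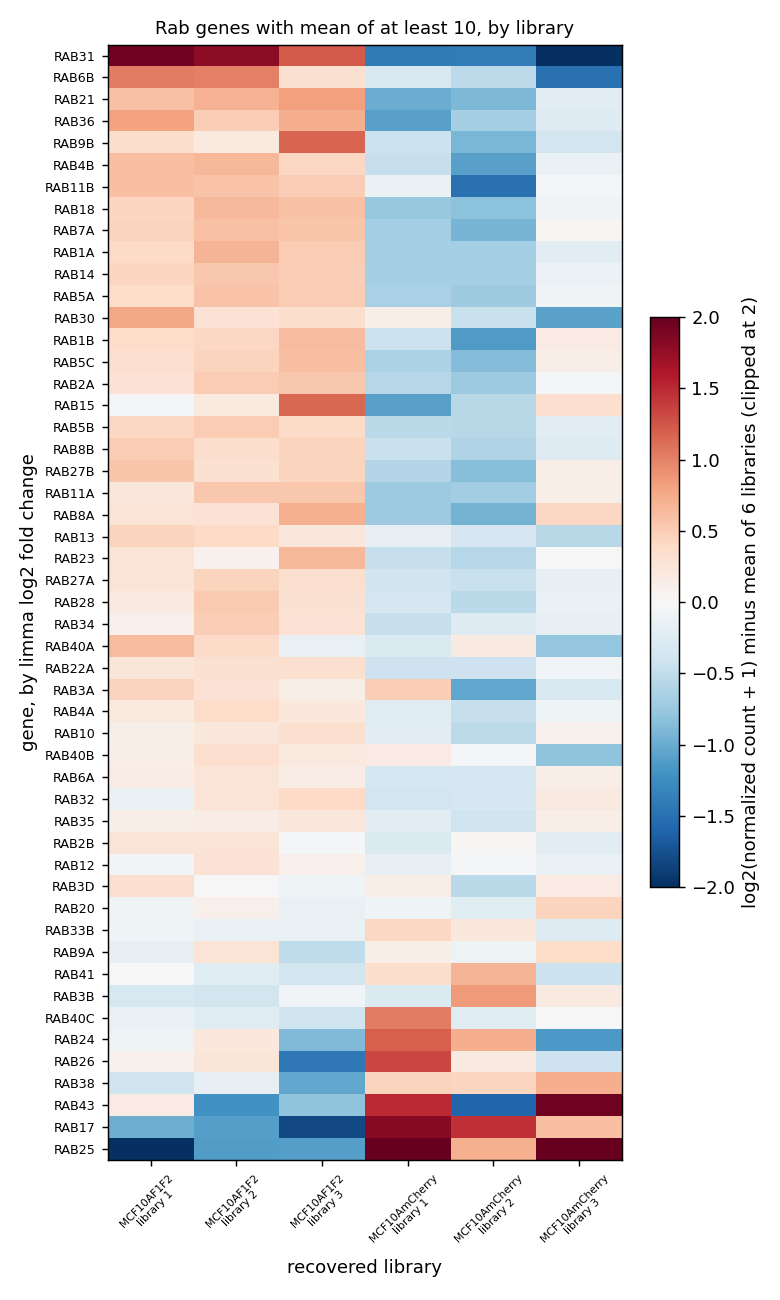
Each cell is log2(normalized count + 1) of a Rab gene (rows, by limma log2 fold change) in a recovered library (columns), minus the gene's mean over the 6 libraries and clipped at 2. For most rows the 3 MCF10AF1F2 columns are red and MCF10AmCherry libraries 1 and 2 blue, with MCF10AmCherry library 3 paler; RAB25, RAB17 and RAB38 at the foot run the other way.

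Of 7 early endosomal Rabs 6 rose, with a median log2 fold change of 0.84 in the authors' deposited table. RAB20, which did not pass, had a log2 fold change of -0.10 there. The counts of this and the following groups stand beside 40.0% rising and 7.27% falling over the 55 Rab genes tested. Over all genes tested, 11.6% rose and 12.0% fell. RAB31, also known as RAB22B, works between the trans-Golgi network and early endosomes and lies at chromosome 18, 9708228 to 9862553 (GRCh37, as are all gene positions below). It had 1075, 961 and 653 normalized counts in MCF10AF1F2 libraries, against 104, 105 and 62.2 in MCF10AmCherry libraries. The lowest MCF10AF1F2 library stood far above the highest MCF10AmCherry library. Each group was lowest in its own library 3, a number with no tie between the groups. The means were 896 ± 218 in MCF10AF1F2 and 90.6 ± 24.6 in MCF10AmCherry libraries (SD, n = 3 each), a 9.89-fold difference, with a log2 fold change of 3.14 and an adjusted p of 1.48e-20 from the authors' deposited table. Its closest relative RAB22A, which acts on the same route, had 1283, 1343 and 1345 normalized counts in MCF10AF1F2 libraries, against 815, 815 and 1041 in MCF10AmCherry libraries. RAB22A was thus higher in all MCF10AF1F2 libraries by a smaller ratio, 1.49-fold (adjusted p = 0.0479 in the authors' deposited table). The difference between the responses of these relatives was not tested.

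RAB21, which regulates integrin traffic through early endosomes (chromosome 12, 72148658 to 72181150), had 938, 1010 and 1111 normalized counts in MCF10AF1F2 libraries, against 313, 337 and 541 in MCF10AmCherry libraries. Every MCF10AF1F2 library exceeded every MCF10AmCherry library, and the 2.57-fold difference had an adjusted p of 9.38e-05 from the authors' deposited table. The RAB5 isoforms, which drive the fusion of early endosomes, all rose. RAB5A had 1821, 2096 and 2008 normalized counts in MCF10AF1F2 libraries, against 897, 859 and 1342 in MCF10AmCherry libraries. RAB5B averaged 5316 ± 252 in MCF10AF1F2 and 2930 ± 403 in MCF10AmCherry libraries, and RAB5C averaged 3287 ± 305 in MCF10AF1F2 and 1818 ± 691 in MCF10AmCherry libraries (SD, n = 3 each). The ratios were 1.91, 1.81 and 1.81 for RAB5A, RAB5B and RAB5C, with adjusted p-values of 0.00474, 0.00106 and 0.0374 in the authors' deposited table.

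**Figure D3:**
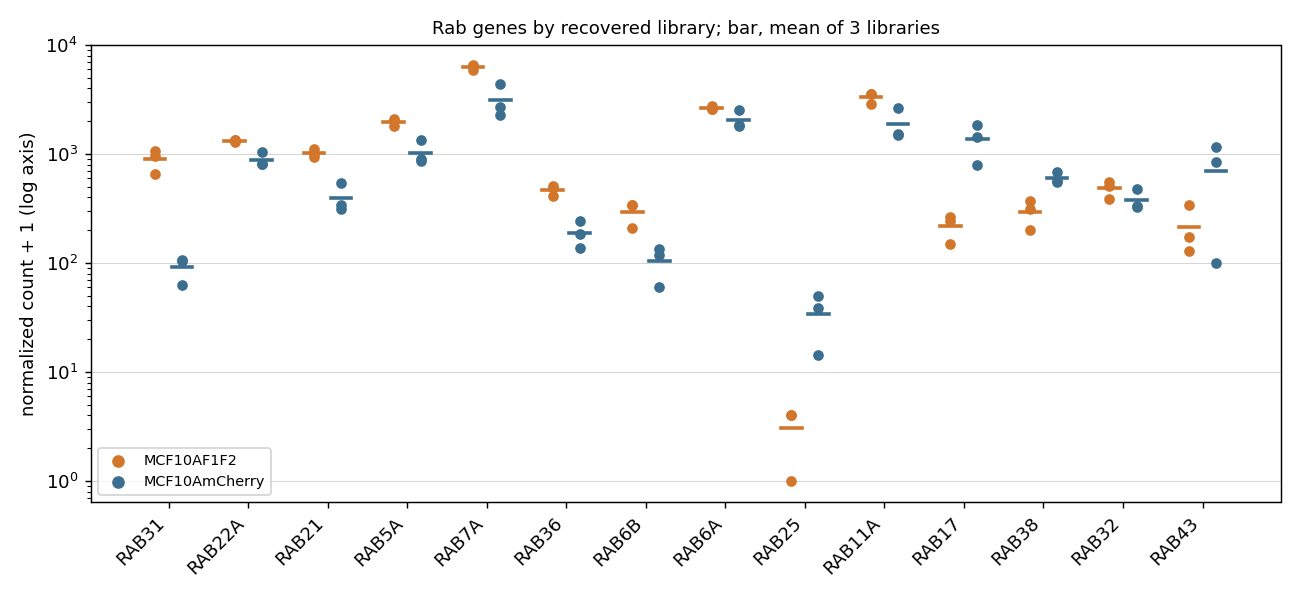
Normalized count + 1 (log axis) of 14 Rab genes in each recovered library, MCF10AF1F2 left and MCF10AmCherry right for each gene, with a bar at the mean of 3 libraries. RAB31 and RAB25 show the widest gaps between the lines, in opposite directions, and the RAB43 points of the lines overlap.

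Rabs of recycling, exocytosis and polarity were split, with 5 of 13 rising and 2 falling. Their median log2 fold change was 0.69 in the authors' deposited table. RAB25, an epithelial member of the RAB11 family that works in apical recycling (chromosome 1, 156030951 to 156040295), had 0, 3.04 and 3.08 normalized counts in MCF10AF1F2 libraries, against 49.3, 13.4 and 37.5 in MCF10AmCherry libraries. The gene was close to the detection limit in all MCF10AF1F2 libraries and low in MCF10AmCherry libraries too. The means, 2.04 ± 1.77 in MCF10AF1F2 and 33.4 ± 18.3 in MCF10AmCherry libraries (SD, n = 3 each), differ 16.4-fold, with 0, 3 and 3 reads behind the MCF10AF1F2 values. The moderated log2 fold change in the authors' deposited table was -2.99 (adjusted p = 3.48e-05), and the limma fit gave -3.57 with a standard error of 0.74 (adjusted p = 0.0155). The authors' deposited Tuxedo table gave a q-value of 0.271 for RAB25.

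The ubiquitous relatives of RAB25 are RAB11A and RAB11B. RAB11A, the general recycling endosome Rab, had 2884, 3579 and 3593 normalized counts in MCF10AF1F2 libraries, against 1488, 1518 and 2675 in MCF10AmCherry libraries, a rise of 1.77-fold (adjusted p = 0.041 in the authors' deposited table). RAB11B had 683, 667 and 628 in MCF10AF1F2 libraries, against 408, 158 and 437 in MCF10AmCherry libraries. All MCF10AF1F2 libraries were higher, by 1.97-fold in the means, a larger ratio than that of RAB11A. The adjusted p for RAB11B missed the threshold at 0.0539 in the authors' deposited table of means, and its q-value was 0.0367 in the authors' deposited Tuxedo table, which passes it.

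RAB17, an epithelial Rab of apical recycling and transcytosis (chromosome 2, 238482965 to 238510257), had 266, 244 and 150 normalized counts in MCF10AF1F2 libraries, against 1846, 1441 and 795 in MCF10AmCherry libraries. The lines do not overlap. Within each line the lowest was its library 3, a number with no tie between the lines. RAB17 fell 6.18-fold by the means of 220 ± 61.6 in MCF10AF1F2 and 1361 ± 530 in MCF10AmCherry libraries (SD, n = 3 each), with a log2 fold change of -2.46 and an adjusted p of 6.85e-10 from the authors' deposited table. Others in this group rose. RAB13, a Rab of tight junctions and cell migration, averaged 4147 ± 317 in MCF10AF1F2 and 2546 ± 344 in MCF10AmCherry libraries (SD, n = 3 each; adjusted p = 0.0117 in the authors' deposited table).

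RAB14, which acts between the Golgi and endosomes, averaged 3695 ± 126 in MCF10AF1F2 and 1910 ± 452 in MCF10AmCherry libraries (SD, n = 3 each; adjusted p = 0.00215 in the authors' deposited table). RAB8B, an exocytic Rab, averaged 721 ± 41.2 in MCF10AF1F2 and 396 ± 47.8 in MCF10AmCherry libraries (SD, n = 3 each; adjusted p = 0.0017 in the authors' deposited table). Its relative RAB8A overlapped between the lines, with 1327, 1344 and 1812 normalized counts in MCF10AF1F2 libraries, against 668, 570 and 1467 in MCF10AmCherry libraries. Among the rapid recycling Rabs, RAB4B had 160, 167 and 141 normalized counts in MCF10AF1F2 libraries, against 75.9, 48.8 and 95.8 in MCF10AmCherry libraries. RAB4B rose 2.12-fold (adjusted p = 0.0103 in the authors' deposited table). RAB4A, the more abundant isoform, averaged 1997 ± 128 in MCF10AF1F2 and 1402 ± 182 in MCF10AmCherry libraries (SD, n = 3 each) and did not pass (adjusted p = 0.0791 in the authors' deposited table). RAB10, RAB15 and RAB35 completed this group with log2 fold changes of 0.41, 0.77 and 0.31 from the authors' deposited table and no call.

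Among the 6 Rabs of late endosomes, lysosomes and lysosome-related organelles 2 rose and 1 fell, with a median log2 fold change of 0.06 in the authors' deposited table. RAB7A, which governs traffic from late endosomes to lysosomes, had 5911, 6512 and 6411 normalized counts in MCF10AF1F2 libraries, against 2718, 2290 and 4398 in MCF10AmCherry libraries. The 2.00-fold rise had an adjusted p of 0.00831 from the authors' deposited table, and the Tuxedo table of the authors gave a q-value of 0.0797. RAB9B, a Rab of late endosome to Golgi transport, had 43.0, 38.5 and 76.1 in MCF10AF1F2 libraries, against 24.7, 17.2 and 25.7 in MCF10AmCherry libraries (adjusted p = 0.0375 in the authors' deposited table; 0.0605 in limma). RAB9A, its far more abundant relative, averaged 705 ± 192 in MCF10AF1F2 and 832 ± 136 in MCF10AmCherry libraries (SD, n = 3 each) and overlapped.

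RAB38, a Rab of melanosomes and other lysosome-related organelles (chromosome 11, 87846448 to 87908635), had 315, 369 and 201 normalized counts in MCF10AF1F2 libraries, against 563, 559 and 689 in MCF10AmCherry libraries. It fell 2.05-fold without overlap (log2 fold change of -0.99, adjusted p = 0.00617 in the authors' deposited table), and the Tuxedo table of the authors gave a q-value of 0.00147. Its relative RAB32, which shares this role, had 383, 512 and 556 in MCF10AF1F2 libraries, against 324, 332 and 476 in MCF10AmCherry libraries, with overlap and an adjusted p of 0.396 from the authors' deposited table. RAB24, a Rab linked to autophagy, spread widely within each line, with 714, 894 and 417 in MCF10AF1F2 libraries, against 1754, 1266 and 347 in MCF10AmCherry libraries. Its locus holds 2 other genes, PRELID1 and MXD3, and it was not called.

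Of 14 tested Rabs of the endoplasmic reticulum and Golgi 5 rose and 1 fell, with a median log2 fold change of 0.6 in the authors' deposited table. RAB6B, a Golgi Rab described mainly in neurons (chromosome 3, 133502877 to 133614680), had 342, 340 and 207 normalized counts in MCF10AF1F2 libraries, against 134, 117 and 59.2 in MCF10AmCherry libraries. It rose 2.87-fold without overlap (adjusted p = 0.00122 in the authors' deposited table), although the Tuxedo table of the authors gave a q-value of 0.342. The ubiquitous RAB6A had 2585, 2779 and 2585 in MCF10AF1F2 libraries, against 1819, 1836 and 2565 in MCF10AmCherry libraries, and was not called (adjusted p = 0.303 in the authors' deposited table). RAB36, a Golgi Rab related to RAB34 (chromosome 22, 23487513 to 23506537), had 513, 413 and 488 in MCF10AF1F2 libraries, against 137, 184 and 244 in MCF10AmCherry libraries. It rose 2.51-fold (adjusted p = 0.0002 in the authors' deposited table).

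Of the abundant early secretory Rabs, RAB1A, RAB2A and RAB18 rose. RAB1A, which acts in transport from the endoplasmic reticulum to the Golgi, had 3469, 4257 and 3770 normalized counts in MCF10AF1F2 libraries, against 1689, 1656 and 2294 in MCF10AmCherry libraries. The log2 fold change of RAB1A, 1.00, had an adjusted p of 0.000505 from the authors' deposited table. RAB1B averaged 3567 ± 323 in MCF10AF1F2 and 1991 ± 859 in MCF10AmCherry libraries (SD, n = 3 each) and missed the threshold (adjusted p = 0.0673 in the authors' deposited table). RAB18, a Rab of lipid droplets and the endoplasmic reticulum, had 2351, 2726 and 2606 in MCF10AF1F2 libraries, against 1029, 984 and 1667 in MCF10AmCherry libraries (adjusted p = 0.00262 in the authors' deposited table). RAB2A, a Golgi Rab, averaged 2770 ± 244 in MCF10AF1F2 and 1523 ± 405 in MCF10AmCherry libraries (SD, n = 3 each; adjusted p = 0.0117 in the authors' deposited table).

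The others of this group, RAB2B, RAB30, RAB33A, RAB33B, RAB39B and RAB41, were not called. Of these, RAB30 had the largest log2 fold change, 0.82 (adjusted p = 0.0772 in the authors' deposited table), at 188 ± 35.7 normalized counts in MCF10AF1F2 and 103 ± 41.6 in MCF10AmCherry libraries (SD, n = 3 each).

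RAB43, another Golgi Rab, fell in the authors' deposited table of means but in neither other test over all libraries. It had 339, 129 and 172 normalized counts in MCF10AF1F2 libraries, against 847, 100 and 1170 in MCF10AmCherry libraries. The lines overlap, since MCF10AmCherry library 2 was the lowest of all 6. The authors' deposited table gave RAB43 an adjusted p of 0.0498, limma gave 0.346 and the Tuxedo table of the authors a q-value of 0.371. Without MCF10AmCherry library 2 the limma adjusted p was 0.0302. The RAB43 locus is joined to that of ISY1, and how the authors' counting split reads between these genes is not given in the labels, so the RAB43 value is uncertain. ISY1 averaged 1958 ± 184 in MCF10AF1F2 and 1151 ± 94.9 in MCF10AmCherry libraries (SD, n = 3 each). Loci of other Rab genes that rose join named neighbours, among them RAB6B with SRPRB, RAB14 with GSN, RAB1A with CEP68 and RAB5A with C3orf48. Their counts carry the same uncertainty.

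Rabs of regulated secretion gave 2 rises among 7 tested, both of the RAB27 pair, which docks secretory granules and multivesicular bodies at the plasma membrane. The median log2 fold change of the 7 was 0.41 in the authors' deposited table. RAB27A had 906, 1031 and 947 normalized counts in MCF10AF1F2 libraries, against 574, 556 and 674 in MCF10AmCherry libraries. RAB27B had 2355, 1970 and 2167 in MCF10AF1F2 libraries, against 1059, 883 and 1755 in MCF10AmCherry libraries. Neither overlapped between the lines, and the adjusted p-values were 0.0139 and 0.0484 in the authors' deposited table. RAB26, which acts in secretory granules, and RAB37 did not pass, with log2 fold changes of -0.66 and 0.79 by the authors' deposited table. None of the tested RAB3 genes, whose products act in regulated exocytosis, passed: RAB3D, the most abundant of them, averaged 578 ± 90.8 in MCF10AF1F2 and 525 ± 132 in MCF10AmCherry libraries (SD, n = 3 each). Of 3 Rabs tied to the primary cilium, with a median log2 fold change of 0.65 in the authors' deposited table, RAB34 and RAB28 rose. The rises were 1.51-fold and 1.59-fold (adjusted p = 0.0443 and 0.0395 in the authors' deposited table), and limma gave adjusted p-values of 0.0482 and 0.0572. RAB23, a negative regulator of Hedgehog signalling, averaged 453 ± 94.3 in MCF10AF1F2 and 283 ± 62.2 in MCF10AmCherry libraries (SD, n = 3 each) with an adjusted p of 0.0788 from the authors' deposited table. None of the 5 tested members of the last group, RAB12, RAB42 and the RAB40 genes, which carry a SOCS box, was called, and their log2 fold changes ran from -0.85 to 0.53 in the authors' deposited table.

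Levels were compared between Rab genes per length, in the authors' deposited FPKM, which hold 1 value per group. Summed over the 60 genes they came to 1749 FPKM in MCF10AF1F2 and 1226 FPKM in MCF10AmCherry cells. Leading members were largely shared: RAB7A, RAB34 and RAB13 held ranks 1, 2 and 3 in MCF10AF1F2 cells and ranks 2, 1 and 3 in MCF10AmCherry cells. RAB7A had 208 FPKM, or 11.9% of the summed Rab FPKM, in MCF10AF1F2 cells and 119 FPKM, or 9.67%, in MCF10AmCherry cells. RAB17 stood at rank 31 with 7.99 FPKM in MCF10AF1F2 cells and rank 8 with 56.2 FPKM in MCF10AmCherry cells. RAB31 held rank 29 with 9.45 FPKM in MCF10AF1F2 cells and rank 46 with 0.967 FPKM in MCF10AmCherry cells, so that after its rise it was still below RAB5A, at 51.3 FPKM. Early endosomal Rabs made up 13.1% of the summed Rab FPKM in MCF10AF1F2 and 10.4% in MCF10AmCherry cells, and Rabs of recycling, exocytosis and polarity 30.8% in MCF10AF1F2 and 34.2% in MCF10AmCherry cells. FPKM of 1 or more was reached by 46 Rab genes in MCF10AF1F2 and 45 in MCF10AmCherry cells.

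**Figure D4:**
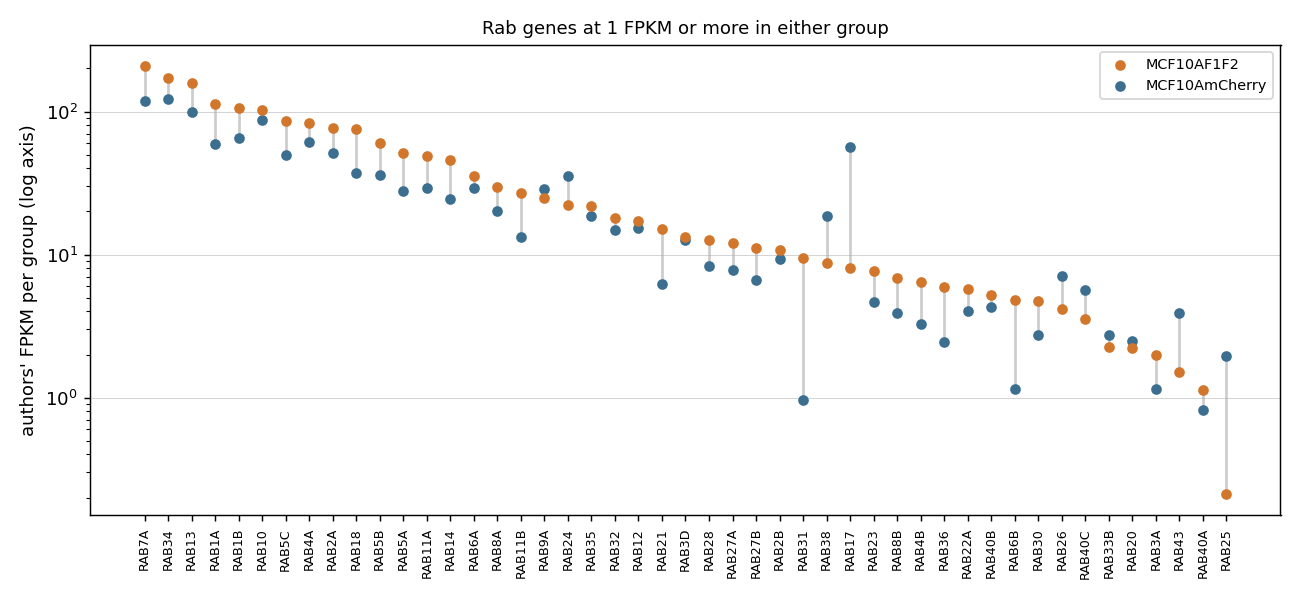
Authors' FPKM (log axis, 1 value per group and no replicate error) of the Rab genes that reached 1 FPKM in either group, ordered by level in MCF10AF1F2 cells. RAB7A, RAB34 and RAB13 lead in both lines, while RAB17 and RAB25 lie far lower in MCF10AF1F2 and RAB31 far higher.

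Genes for the proteins that load and unload Rabs had median fold changes near that of all genes. Of 36 tested GEFs 2 rose (5.56%) and 8 fell (22.2%), and of 36 tested GAPs 6 rose (16.7%) and 2 fell (5.56%), against 11.6% higher and 12.0% lower over all genes tested. The median log2 fold changes by the authors' deposited table were -0.07 and 0.14. They were -0.04 for all genes tested and 0.11 for those with a mean of at least 100. DENND1C, of a family that activates RAB35, had 11.0, 8.11 and 2.06 normalized counts in MCF10AF1F2 libraries, against 387, 237 and 277 in MCF10AmCherry libraries (log2 fold change of -4.88, adjusted p = 6.52e-28 in the authors' deposited table). ALS2CL, a relative of the RAB5 exchange factor alsin, had 1375, 1912 and 953 in MCF10AF1F2 libraries, against 16884, 10825 and 6118 in MCF10AmCherry libraries. HPS4, a subunit of the exchange factor for RAB32 and RAB38, averaged 1020 ± 48.5 in MCF10AF1F2 and 3300 ± 958 in MCF10AmCherry libraries, and DENND2C, of a family that acts on RAB9, averaged 177 ± 3.36 in MCF10AF1F2 and 506 ± 42.1 in MCF10AmCherry libraries (SD, n = 3 each). ALS2CL, HPS4 and DENND2C fell with adjusted p-values of 7.73e-11, 3.57e-07 and 2.2e-09 in the authors' deposited table. HPS1, the partner subunit of HPS4, did not fall. It averaged 912 ± 75.4 in MCF10AF1F2 and 622 ± 93.9 in MCF10AmCherry libraries (SD, n = 3 each). All MCF10AF1F2 libraries were higher for HPS1, without a call (adjusted p = 0.0739 in the authors' deposited table). RPGR, a ciliary protein reported as an exchange factor for RAB8A, averaged 1342 ± 110 in MCF10AF1F2 and 447 ± 121 in MCF10AmCherry libraries (SD, n = 3 each; adjusted p = 4.5e-07), and DENND5A rose with a log2 fold change of 0.64 in the authors' deposited table. Among the GAPs, EVI5L, TBC1D22A, TBC1D5 and EVI5 rose by log2 fold changes between 0.75 and 1.00 in the authors' deposited table, and GRTP1 and TBC1D4 fell by 1.16 and 0.92 on that scale.

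In the list for prenylation, escort and GDI, 2 of 17 genes rose and 3 fell (11.8% and 17.6%), against 11.6% and 12.0% of all genes tested. The median log2 fold change of this list was -0.19 in the authors' deposited table. It was -0.04 for all genes tested and 0.11 for those with a mean of at least 100. Both subunits of Rab geranylgeranyl transferase fell in the authors' deposited table of means. RABGGTA, the alpha subunit, had 1068, 1261 and 900 normalized counts in MCF10AF1F2 libraries, against 2843, 2038 and 2495 in MCF10AmCherry libraries (adjusted p = 9.09e-05 in the authors' deposited table). RABGGTB, the beta subunit, had 2738, 3342 and 2825 in MCF10AF1F2 libraries, against 4070, 5940 and 4232 in MCF10AmCherry libraries (adjusted p = 0.0409 in the authors' deposited table). RABGGTB passed in neither other test, with an adjusted p of 0.0518 in limma and a q-value of 0.0698 in the Tuxedo table of the authors. RCE1, a protease that trims prenylated proteins, averaged 253 ± 33.4 in MCF10AF1F2 and 482 ± 87.1 in MCF10AmCherry libraries (SD, n = 3 each; adjusted p = 0.00495 in the authors' deposited table). The genes that rose were the escort protein gene CHM, at 1644 ± 168 in MCF10AF1F2 and 756 ± 217 in MCF10AmCherry libraries, and the GDI gene GDI2, at 7746 ± 842 in MCF10AF1F2 and 4334 ± 958 in MCF10AmCherry libraries (SD, n = 3 each). None of these 5 genes overlapped between the lines, and the adjusted p-values of CHM and GDI2 were 0.0011 and 0.00891 in the authors' deposited table.

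Of 59 tested Rab effectors 5 rose and 9 fell (8.47% and 15.3%). The shares over all genes tested were 11.6% higher and 12.0% lower. Of the effectors with the deepest falls, the synaptotagmin-like RAB27 effectors SYTL2 and SYTL1 were both lower without overlap. SYTL2 had 20.0, 42.6 and 23.6 normalized counts in MCF10AF1F2 libraries, against 126, 200 and 314 in MCF10AmCherry libraries. SYTL1 had 415, 361 and 197 in MCF10AF1F2 libraries, against 2701, 1426 and 974 in MCF10AmCherry libraries. EXPH5, the RAB27 effector Slac2-b, had 58.0, 63.8 and 97.7 in MCF10AF1F2 libraries, against 341, 434 and 621 in MCF10AmCherry libraries. The log2 fold changes of SYTL2, EXPH5 and SYTL1 were -2.63, -2.52 and -2.19 in the authors' deposited table, while the RAB27 genes themselves were higher. RAB11FIP4, a RAB11 effector, averaged 77.4 ± 43.6 in MCF10AF1F2 and 339 ± 75.4 in MCF10AmCherry libraries (SD, n = 3 each; adjusted p = 9.34e-05 in the authors' deposited table). Most other effectors of these Rabs on the list were not called, among them SYTL3, SYTL4, SYTL5, UNC13D, MYRIP and RPH3AL for RAB27 or RAB3 and RAB11FIP1, RAB11FIP2 and RAB11FIP3 for RAB11, with adjusted p-values between 0.275 and 0.931 in the authors' deposited table. MYO5B, the motor of RAB11 and RAB25 recycling endosomes and chosen after its values were seen, averaged 189 ± 95.5 in MCF10AF1F2 and 824 ± 403 in MCF10AmCherry libraries (SD, n = 3 each; adjusted p = 0.000215 in the authors' deposited table).

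The effector genes that rose included MLPH, a RAB27A effector of melanosome transport, at 1213, 1034 and 1502 normalized counts in MCF10AF1F2 libraries, against 527, 324 and 348 in MCF10AmCherry libraries. PLIN3, described as a RAB9 effector in the return of mannose 6-phosphate receptors, averaged 2986 ± 411 in MCF10AF1F2 and 1053 ± 476 in MCF10AmCherry libraries (SD, n = 3 each). The adjusted p-values of MLPH and PLIN3 were 1.8e-06 and 0.000489 in the authors' deposited table. RAB11FIP5 and OCRL rose by log2 fold changes of 0.68 and 0.54 there.

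**Figure D5:**
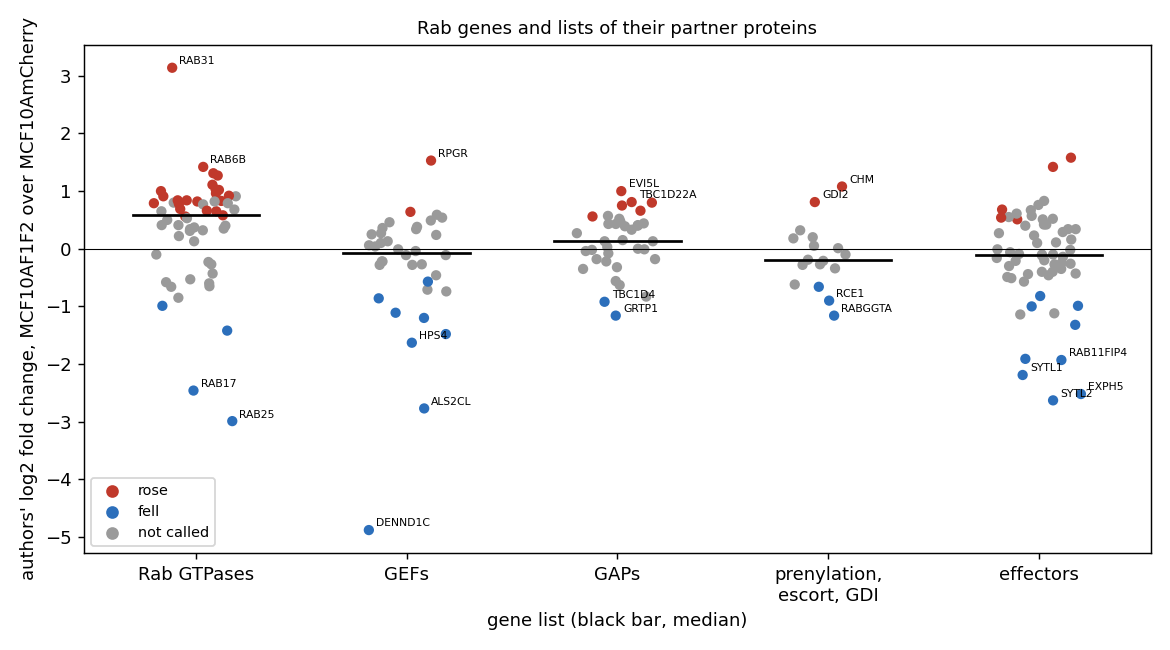
Authors' log2 fold change (MCF10AF1F2 over MCF10AmCherry, vertical axis) of the Rab genes and of 4 lists of partner genes, 1 point a gene with an adjusted p, coloured by call, with a black bar at each median. The Rab genes have the highest median, 0.58, and the partner lists lie between -0.19 and 0.14.

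Repressors that bind the CAGGTG motif were measured in the same libraries. ZEB1 had 874, 720 and 1132 normalized counts in MCF10AF1F2 libraries, against 157, 178 and 132 in MCF10AmCherry libraries, and ZEB2 averaged 749 ± 115 in MCF10AF1F2 and 151 ± 19.0 in MCF10AmCherry libraries (SD, n = 3 each). Both rose (adjusted p = 1.38e-16 for ZEB1 and 1.36e-16 for ZEB2 in the authors' deposited table). SNAI2 overlapped between the lines, with 787, 879 and 1533 in MCF10AF1F2 libraries, against 663, 811 and 479 in MCF10AmCherry libraries. SNAI1 averaged 22.4 ± 9.18 in MCF10AF1F2 and 13.8 ± 10.7 in MCF10AmCherry libraries. TWIST1, on the same list of E-box repressors, averaged 378 ± 129 and 253 ± 123 (SD, n = 3 each). Both overlapped. SNAI2, SNAI1 and TWIST1 were not called (adjusted p = 0.136, 0.547 and 0.351 in the authors' deposited table). Whether any of them acts on RAB25 or RAB17 was not tested.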

How the data were processed

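RNA of 3 MCF10AF1F2 and 3 MCF10AmCherry samples was sequenced. The submitters' processing notes list, for the authors' work, HISAT2 2.1.0, HTSeq 0.9.1, DESeq2 1.18.1 and GRCh37; the sources used here give neither the annotation release nor whether counting used strand. The authors deposited 2 tables of 52401 genes. The first holds signal, the group means of size-factor-normalized counts, with the authors' log2 fold changes and adjusted p-values, per the file headers. The second, from the Tuxedo pipeline per its name, holds FPKM, log2 fold changes, a test score and q-values of the authors, per the file headers.

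Each mean is a sum of 3 whole counts over 3 size factors; a search over whole numbers gave a single solution for 99.72% of MCF10AF1F2 and 99.74% of MCF10AmCherry means above 0. The search was tested on simulated data first. In all, 104 genes, each with a mean of at least 20959.7 in a group, stayed unsolved. The main calls are the authors' adjusted p under 0.05. limma 3.58.1 (R 4.3.3; trend, robust, Benjamini-Hochberg) was fitted to log2(normalized count + 1) for the 15907 genes solved in both groups whose mean reached 10, and was tested on simulated data. Python 3.11.15, numpy 2.4.6, pandas 2.3.3, numba 0.67.0 and matplotlib 3.10.9 were used.

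The members and lists were chosen with earlier results of these data known. Full values are given for members called with an absolute log2 fold change of 1 or more and for some of their close relatives. Of the other relatives, RAB1B, RAB4A and RAB9A are given by mean and SD and RAB6C by an upper limit. Other members and up to 4 genes per direction of each partner list follow by role, and other members named were chosen after their values were seen. Symbols follow the files; 5 listed GEF symbols had no row of that name. Gene positions are those of the Tuxedo table, counted from 1, and can join neighbouring genes. Promoter sequences are RefSeq's, on GRCh38.p14, and were joined by symbol only.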

Additional observations from a re-analysis of the deposited data

How the results depend on the processing

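At an adjusted p under 0.01 the authors' table held 11 rises, and the share over all genes at that threshold is not given here. The authors' Tuxedo table called 13 Rab genes higher and 2 lower among 50 tested (6.93% and 10.0% of all its tested genes). Of these calls, 12 of the 13 and both of the 2 were shared with the first table. Limma called 20 and 3 with a pseudocount of 0.5, where 12.1% of all genes in the fit were called higher. It called 17 and 3 at a mean of at least 1 (8.3% of all genes higher). At a mean of at least 100 it called 20 and 2 (15.1%), and scaled to total reads of the solved genes 19 and 3 (11.4%). It called 20 and 3 with upper quartile scaling (12.1%). Without library 3 of both groups, numbers with no tie between the groups, it called 28 and 4 (23.4% of all genes higher). Leaving out 1 library gave 3 to 30 higher and 1 to 4 lower. For the partner lists together, 15 higher and 22 lower, the Tuxedo table called 5 higher, limma without library 3 of both groups 26 higher, and leaving out 1 library gave 2 to 25 higher and 10 to 25 lower. Over 26 named Rab genes and all settings, 262 of 362 values kept direction and call, 90 lost the call and 9 gained one. The 1 value that turned direction was that of RAB9A, at 0.05 (limma adjusted p = 0.876) without library 3 of both groups. The 26 include RAB1B, RAB4A, RAB6A, RAB9A, RAB11B and RAB32, which were not called and so could not lose a call. They leave out RAB2A, RAB8B, RAB13, RAB14, RAB28 and RAB34, which rose. RAB7A's share of Rab reads was 8.75% in MCF10AF1F2 and 6.68% in MCF10AmCherry libraries by normalized counts, RAB31's 1.25% in MCF10AF1F2 and 0.206% in MCF10AmCherry libraries, and RAB17's 0.308% in MCF10AF1F2 and 3.10% in MCF10AmCherry libraries. By FPKM, RAB31 held 0.54% in MCF10AF1F2 and 0.0789% in MCF10AmCherry cells, and RAB17 0.457% in MCF10AF1F2 and 4.59% in MCF10AmCherry cells; counts are not per length, and the cause of the difference was not tested. No paired analysis was possible because the recovered libraries carry no replicate numbers. The values of low genes such as RAB25 in MCF10AF1F2 libraries rest on few reads.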
